A study of Homo sapiens with 8 samples.

Results

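USP, TRIM and F-box proteins are 3 large families that add ubiquitin to proteins or take it off. The USP genes encode deubiquitinases, proteases that remove ubiquitin from their substrates. Most TRIM genes encode ubiquitin ligases built from a RING finger, B-boxes and a coiled coil, and several act in antiviral defence or in gene silencing. F-box proteins are the substrate receptors of SCF ligases, in which the F-box binds SKP1 and the rest of the protein holds the substrate. FBXW proteins carry WD40 repeats, FBXL proteins carry leucine-rich repeats, and FBXO proteins carry other domains or none that is recognised.

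Members were chosen by name: USP, TRIM, FBXO, FBXL or FBXW followed by digits, protein-coding and not hyphenated. From the USP and the TRIM names, 1 gene each was left out of the members and of all family totals. They came to 131 genes of the 11992 listed in either cell line, 126 of 10447 in HUH7 and 66 of 5475 in PLC/PRF/5, where they held 113 of 9516 peaks. The name rule also takes in USP6NL, which encodes a RAB GTPase-activating protein and no deubiquitinase.

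The samples were CSTF2-knockout cells made with CRISPR-Cas9 and parental cells of the human hepatocellular carcinoma lines HUH7 and PLC/PRF/5. MeRIP-seq enriches RNA fragments that carry N6-methyladenosine (m6A) with an antibody and sequences them beside an input library. There were 8 libraries, 1 for each cell line, genotype and fraction, so no value had a replicate or a test, and whether the knockout lines were single clones is not given in the sources used here. Of 7 hepatocyte markers, 4 were listed in HUH7 and 5 in PLC/PRF/5, and TTR and AFP were listed in neither.

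The data are the authors' deposited log2 fold changes between parental and knockout cells, 1 per gene in HUH7 and 1 per peak in PLC/PRF/5. The headers do not state which genotype is the numerator, so signs are given as deposited, and the direction could differ between the lines. Read counts were not analysed here, so the depth behind each value is unknown. A difference in the level of a transcript and a difference in its methylation cannot be told apart from these columns alone, because the sources used here do not say how input was used.

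Features of both columns bear on every value below. In HUH7, 1315 genes (12.6%) held 1 of 16 values shared to 6 decimals by 10 or more genes, called repeated values here. On the linear scale, the 8 positive and the 8 negative repeated values each stood in the ratio of the whole numbers 3 to 10, and no source used here says what the steps count. In PLC/PRF/5, the values of all peaks filled the range from -2 to 13 almost evenly, with 1861, 1917, 1897, 1902 and 1873 peaks in its 5 equal parts. The members' peaks numbered 24, 28, 19, 25 and 17 in the same parts. Such an even spread is unusual for log2 fold changes, and whether each PLC/PRF/5 value is tied to the gene beside it was not tested, which limits what any single one can show.

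The families differed in how much of each was listed, and USP genes were most often listed in both lines. In HUH7, 40 of 76 USP genes (52.6%), 42 of 74 TRIM genes (56.8%) and 44 of 63 F-box genes (69.8%) were listed, beside 51.0% of all protein-coding genes in RefSeq. In PLC/PRF/5, 29 USP genes (38.2%), 16 TRIM genes (21.6%) and 21 F-box genes (33.3%) were listed, beside 24.1% of all protein-coding genes. Within the F-box family, 15 of 36 FBXO genes but 4 of 17 FBXL and 2 of 10 FBXW genes were listed in PLC/PRF/5.

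USP17L genes, near-identical tandem copies, made up 25 of the 76 USP genes, and 0 of them were listed in either line. Without them, 78.4% of USP genes were listed in HUH7 and 56.9% in PLC/PRF/5. The TRIM49, TRIM64 and TRIM77 genes on the long arm of chromosome 11 (89710299 to 90073531, GRCh38) were likewise listed in neither line. They stayed in the TRIM total, and no copies were taken out of all protein-coding genes, so the USP shares without USP17L have no like counterpart.

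**Figure D1:**
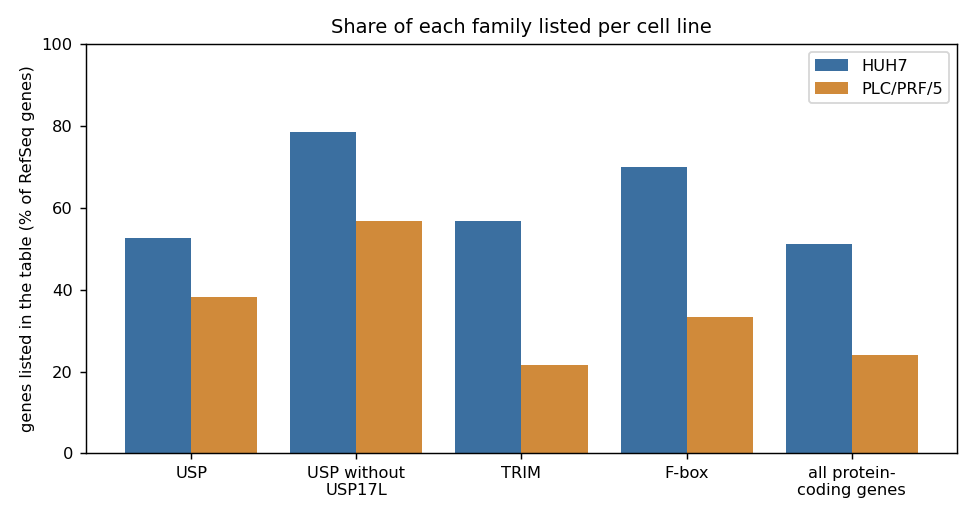
Bars give the percentage of RefSeq protein-coding genes of each family that the deposited table lists in HUH7 (blue) and PLC/PRF/5 (orange), with all protein-coding genes at the right. The TRIM family has the lowest PLC/PRF/5 bar of the 3 families, at 21.6%, and USP genes without USP17L have the highest, at 56.9%. No unlisted copies were taken out of the other groups.

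Of the 40 USP genes listed in HUH7, 27 (67.5%, Clopper-Pearson 95% interval 50.9 to 81.4) were also listed in PLC/PRF/5. The shares were 14 of 42 TRIM genes (33.3%, interval 19.6 to 49.5) and 20 of 44 F-box genes (45.5%, interval 30.4 to 61.2), beside 38.0% of all protein-coding genes in HUH7. The intervals describe lists of genes and hold no error between libraries. Of the 66 members in PLC/PRF/5, 92.4% were also listed in HUH7, beside 80.4% of all protein-coding genes, and 5 were listed in PLC/PRF/5 alone. They were the deubiquitinase genes USP28 and USP33, TRIM23 and TRIM37, and FBXO9. Another 82 of 213 members were listed in neither line, beside 8875 of 20054 protein-coding genes, among them USP18, which removes the ubiquitin-like protein ISG15, and FBXO7, a gene of inherited parkinsonism.

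In HUH7, F-box genes were positive more often than TRIM genes, with USP genes between them, and all 3 medians lay close to 0. There were 24 positive and 16 negative USP genes (60.0% positive, interval 43.3 to 75.1), 21 and 21 TRIM genes (50%, interval 34.2 to 65.8), and 29 and 14 F-box genes with 1 at 0 (65.9%, interval 50.1 to 79.5). Over all HUH7 genes 60.8% were positive, a share inside each of these intervals, and 39.1% negative. The 3 intervals also overlapped each other. Genes of the same libraries are not replicates, so the intervals test no difference from all genes or between families. Median log2 fold changes were 0.18 for USP, -0.04 for TRIM and 0.30 for F-box genes, and 0.20 for all genes. Without repeated values the TRIM median was 0.08, so its sign did not hold.

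A log2 fold change of 1 or more was held by 10 USP, 7 TRIM and 12 F-box genes, and one of -1 or less by 8, 10 and 5 genes in the same order of families. Of all members, 23.0% were at 1 or more and 18.3% at -1 or less, beside 22.2% and 14.6% of all HUH7 genes. At 1 or more the members as a group thus lay near the column as a whole, and at -1 or less their share was somewhat higher. Repeated values were held by 3 members on the positive and 9 on the negative side, beside 4.7% and 7.89% of all genes. Without them, 9 USP (24.3%), 6 TRIM (15.8%) and 11 F-box genes (28.2%) were at 1 or more, beside 20.1% of all unrepeated genes. At -1 or less were then 6 USP (16.2%), 7 TRIM (18.4%) and 1 F-box gene (2.56%), beside 7.72%. Over all members the unrepeated shares were 22.8% and 12.3%, and no test of these differences was made.

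**Figure D2:**
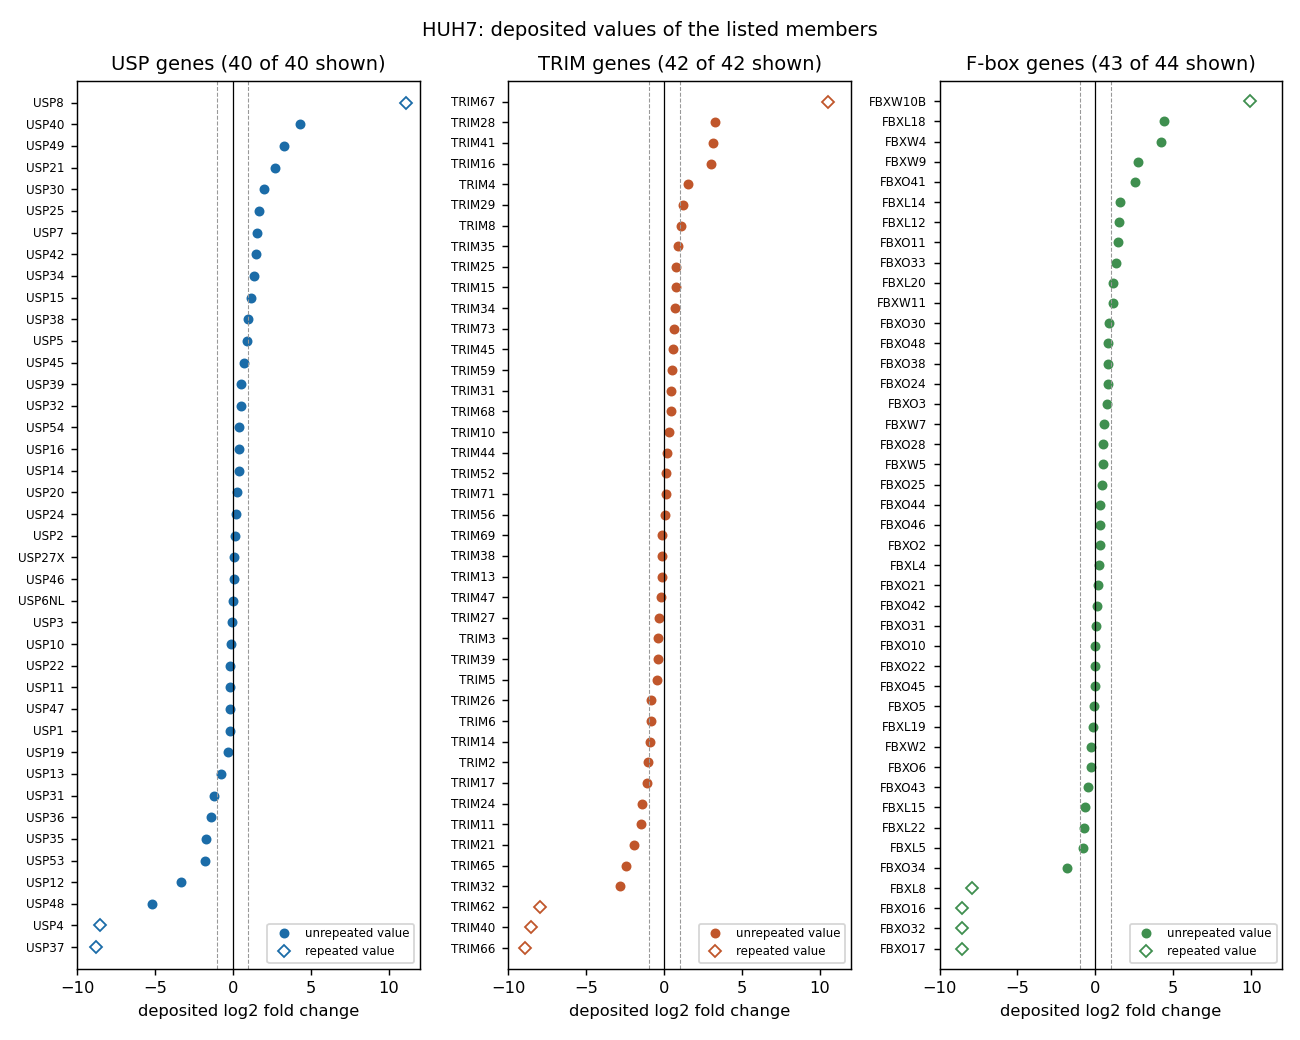
Each symbol is the deposited HUH7 log2 fold change of 1 listed gene (1 F-box gene is not shown), ranked within the USP, TRIM and F-box families. Dashed lines mark -1 and 1, and open diamonds mark repeated values. Most members lie between the dashed lines, the 12 repeated values stand far outside them, and FBXO34 is the only filled F-box point below -1.

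Among USP genes, the lowest unrepeated value lay further from 0 than the highest one. Of the unrepeated USP genes, 9 were at 1 or more and 6 at -1 or less, beside 20.1% and 7.72% of all unrepeated genes. USP48 (-5.18), whose product is a nuclear deubiquitinase, and USP12 (-3.34) were lowest in the authors' deposited table. No unrepeated HUH7 gene lay below USP48 and 46 lay below USP12. USP53 (-1.80), whose product is found at tight junctions, USP35 (-1.72) and the nucleolar deubiquitinase gene USP36 (-1.38) followed in the authors' deposited table. USP12 works with the WD40 proteins WDR48 and WDR20, which activate it. WDR20 had -3.34 and WDR48 0.09 in HUH7 in the authors' deposited table, and WDR20 was the lowest unrepeated value among the 6 USP partners, of which 2 were positive and 4 negative. USP46, the close paralogue of USP12 that shares these partners, had 0.06 in the authors' deposited table.

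At the positive end, USP40 (4.29) and USP49 (3.30), which encodes a histone H2B deubiquitinase, led in the authors' deposited table. USP21 (2.73), whose product acts on histone H2A, USP30 (1.97), a mitochondrial deubiquitinase gene that opposes mitophagy, and USP25 (1.71) followed in the authors' deposited table. USP7 (1.56), which encodes a stabiliser of MDM2 and p53, USP42 (1.50), USP34 (1.38) and USP15 (1.16) were the other unrepeated USP genes above 1 in the authors' deposited table. Only 64 unrepeated genes lay above USP40.

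Other well-known USP genes lay between -1 and 1. USP1 (-0.21), which acts on FANCD2 and PCNA in DNA repair, USP22 (-0.18), of the SAGA complex, and USP14 (0.38), which is bound to the proteasome, were small in the authors' deposited table. USP10 (-0.11), USP47 (-0.20) and USP11 (-0.19) were also small in the authors' deposited table. In the role groups, replication and repair genes had 2 positive and 7 negative values (median -0.20), histone genes had 5 and 3 (median 0.23), and genes of the proteasome, traffic and mitochondria had 9 and 1 (median 0.44). With 9, 8 and 10 genes listed, 3, 4 and 3 were past 1 in either direction, beside 36.9% of all HUH7 genes. Genes of signalling and immunity, the fourth group, had 7 positive and 5 negative values (median 0.10), with 3 at 1 or more and 5 at -1 or less. All HUH7 genes were 60.8% positive, with 22.2% at 1 or more and 14.6% at -1 or less. No test of these short groups was made. USP39, a splicing factor gene without deubiquitinase activity, had 0.50 in the authors' deposited table.

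The USP genes with repeated values numbered 3. USP8, whose product sorts receptors at endosomes, had 11.09, at step 9 of the positive values, in the authors' deposited table. USP37 (-8.75), a cell cycle gene, stood at step 7, and USP4 (-8.53), whose product acts in splicing and TGF-beta signalling, at step 6 of the negative values in the authors' deposited table. These values were shared by 68, 85 and 108 genes of the column.

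TRIM genes had as many negative as positive values, and the largest positive unrepeated ones were those of TRIM28 (3.24), TRIM41 (3.16) and TRIM16 (3.02) in the authors' deposited table. TRIM28, also called KAP1, is the corepressor that KRAB zinc finger proteins recruit to silence chromatin. TRIM24, its relative with a bromodomain, had -1.44 in HUH7 in the authors' deposited table, so the pair carried opposite signs. TRIM66, of the same chromatin-binding subfamily, held a repeated value of -8.94 in the authors' deposited table. TRIM4 (1.53), TRIM29 (1.18) and TRIM8 (1.11) were the other unrepeated TRIM genes above 1 in the authors' deposited table.

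The lowest unrepeated TRIM values were those of TRIM32 (-2.81), a limb-girdle muscular dystrophy gene, and TRIM65 (-2.44), which acts with the RNA sensor MDA5, in the authors' deposited table. TRIM21 (-1.95), the receptor for antibodies inside cells, and TRIM11 (-1.46) followed in the authors' deposited table. Beside TRIM24, TRIM17 (-1.10) and TRIM2 (-1.01) were the other unrepeated TRIM genes at -1 or less in the authors' deposited table. TRIM40 (-8.53), TRIM62 (-7.94) and TRIM67 (10.50) held repeated values in the authors' deposited table, at steps 6, 4 and 6.

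The list of immune and antiviral TRIM genes had 12 positive and 14 negative values among 26 listed, with 2 at 1 or more and 5 at -1 or less (median -0.12), beside 22.2% and 14.6% of all HUH7 genes. TRIM25 (0.77), the ligase that activates the RNA sensor RIG-I, TRIM56 (0.04) and the retroviral restriction factor gene TRIM5 (-0.45) lay between -1 and 1 in the authors' deposited table. TRIM71 (0.13), the RNA-binding target of the let-7 microRNAs, also lay there in the authors' deposited table. The list of chromatin and transcription TRIM genes had 5 positive and 3 negative values, 4 of them at 1 or more and 2 at -1 or less (median 0.62). The list of TRIM genes of the cytoskeleton, neurons and muscle had 2 positive and 4 negative values, with 1 at 1 or more and 3 at -1 or less. Over all HUH7 genes the shares were 22.2% and 14.6%, and no test of these short lists was made.

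Among F-box genes, the FBXW and FBXL subfamilies held most of the large positive values. At 1 or more were 4 of 7 FBXW genes, 5 of 11 FBXL genes and 3 of 26 FBXO genes, beside 22.2% of all HUH7 genes. FBXL18 (4.41), FBXW4 (4.18), FBXW9 (2.72), the neuronal F-box gene FBXO41 (2.54) and FBXL14 (1.57) led among unrepeated values in the authors' deposited table. Above FBXL18 lay 55 unrepeated genes, and above FBXW4 72. FBXL12 (1.49), FBXO11 (1.48), a regulator of BCL6, FBXO33 (1.29), FBXL20 (1.12) and FBXW11 (1.11) were among the others above 1 in the authors' deposited table.

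FBXW11 and BTRC encode the beta-TrCP proteins, which bind phosphorylated beta-catenin and IkB. BTRC, whose name the rule does not match, had 1.23 in HUH7 in the authors' deposited table, close to the 1.11 of FBXW11. FBXW7 (0.56), the receptor for cyclin E and MYC, lay below 1 in the authors' deposited table. On the negative side, FBXO34 (-1.79) was the lowest unrepeated F-box gene, followed by the iron sensor gene FBXL5 (-0.78), FBXL22 (-0.76), FBXL15 (-0.70) and FBXO43 (-0.47) in the authors' deposited table.

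FBXO5 (-0.09), which encodes the APC/C inhibitor EMI1, was near 0, and FBXO22 was listed at 0 in the authors' deposited table. The negative repeated value of -8.53 was held by FBXO16, FBXO17 and FBXO32, the atrophy gene atrogin-1, in the authors' deposited table, the same value as for USP4 and TRIM40. FBXL8 (-7.94) shared its value with TRIM62 in the authors' deposited table. FBXW10B, listed under its older name CDRT1, had 9.92 in the authors' deposited table, and it has a near-identical copy, FBXW10.

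Neighbouring members did not always carry the same sign in HUH7. Of 15 pairs of listed members within 20 kb of each other, 8 had the same sign, and 4 pairs overlapped. On chromosome 6 (30102897 to 30343729, GRCh38), inside the major histocompatibility complex, all 6 TRIM genes were listed. TRIM15 (0.76), TRIM31 (0.47) and TRIM10 (0.32) were positive, and TRIM26 (-0.85), TRIM39 (-0.43) and TRIM40 (-8.53) negative, in the authors' deposited table. On chromosome 11 (5588635 to 5710863), TRIM6 (-0.86) and TRIM5 (-0.45) were negative and TRIM34 (0.70) positive in the authors' deposited table. TRIM5 spans TRIM6 and TRIM34 there, so reads of the 3 genes could be split by the counting, which is not given in the sources used here.

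TRIM11 and TRIM17, 1099 bases apart on chromosome 1 (228393676 to 228416861), had -1.46 and -1.10 in the authors' deposited table. TRIM47 and TRIM65, 955 bases apart on chromosome 17 (75874164 to 75896951), had -0.19 and -2.44 in the authors' deposited table. TRIM16 and FBXW10B lie 8261 bases apart on chromosome 17 (15565482 to 15684311) and had 3.02 and 9.92 in the authors' deposited table. TRIM16 shares sequence with the pseudogene TRIM16L, which stayed outside the members, so its value is uncertain. USP48 lies on chromosome 1 (21678298 to 21783149), USP12 on chromosome 13 (27066156 to 27171811) and USP40 on chromosome 2 (233475526 to 233566782), with no other listed member within 20 kb.

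In PLC/PRF/5, USP genes had the most peaks per listed gene. The mean was 1.97 peaks for USP, 1.62 for TRIM and 1.43 for F-box genes, and 1.74 for all listed genes. Genes with 4 or more peaks numbered 7 of 29 USP genes (24.1%), 0 of 16 TRIM genes and 0 of 21 F-box genes, beside 7.74% of all listed genes. For genes with 2 or more peaks the shares were closer, at 41.4% of USP, 37.5% of TRIM and 33.3% of F-box genes, and 39.5% of all.

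USP genes were also longer, with a median span of 82918 bases, against 31886 for TRIM, 38634 for F-box and 43609 for all listed genes. Per 100 kb of gene, USP genes had 2.05 peaks, TRIM genes 2.56 and F-box genes 2.67, and all listed genes 2.33, so the order of the families was turned round. Over the 66 members, the number of peaks and the gene span had a Spearman rho of 0.20, and over the 4833 listed genes with a span it was 0.23. Within the families rho was 0.14 for USP, 0.25 for TRIM and 0.03 for F-box genes. Spans are genomic and include introns, and whether span accounts for the USP peak number was not tested. All these values are descriptions, since all genes come from the same libraries and share their depth.

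**Figure D3:**
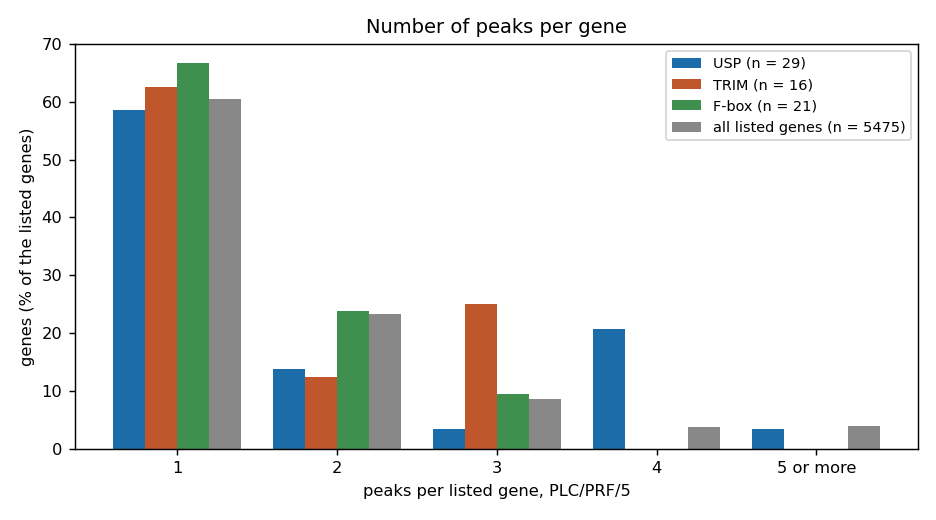
Bars give the percentage of genes with 1, 2, 3, 4 or 5 and more PLC/PRF/5 peaks, for listed USP, TRIM and F-box genes and for all listed genes. TRIM and F-box genes stop at 3 peaks, while 7 of 29 USP genes have 4 or 5.

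USP34, which encodes a very large deubiquitinase of the Wnt pathway, had the most peaks of the members, at -1.01, -0.54, 1.53, 4.22 and 11.81 in the authors' deposited table. USP8 had -1.49, -0.07, 3.12 and 7.29, so its peaks carried both signs, in the authors' deposited table. USP1 had 2.08, 3.42, 7.60 and 7.91 in the authors' deposited table. These genes show how far apart the peaks of 1 gene lay, over most of the column's range in USP34.

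The proteasome-bound USP14 had 1.06, 2.95, 5.42 and 7.28 in the authors' deposited table. USP16, a histone H2A deubiquitinase gene, had 1.65, 8.02, 8.74 and 12.54 in the authors' deposited table. USP25 had 3.30, 3.69, 8.03 and 10.01 in the authors' deposited table. USP47, of base excision repair, had 2.35, 4.05, 5.70 and 9.20 in the authors' deposited table. All peaks of these 4 genes were positive.

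TRIM37, which controls centriole number, had peaks at -1.56, 8.17 and 10.33 in the authors' deposited table. TRIM24 had -0.72, 1.22 and 3.61 in the authors' deposited table. TRIM52 had 2.35, 9.58 and 12.71, and TRIM4 6.47, 8.16 and 11.51, in the authors' deposited table. TRIM44 had 3.33 and 3.56, and TRIM71 -0.41 and 0.92, in the authors' deposited table. TRIM24, TRIM37 and TRIM71 thus carried both signs, and the peaks of TRIM44 lay closest together of the TRIM genes.

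FBXO30 had 3 peaks close together, at 9.81, 9.85 and 9.91, in the authors' deposited table. Of the 468 genes with 3 peaks, FBXO30 included, 2 had a distance between lowest and highest peak up to that of FBXO30. The median distance of such genes was 7.57. FBXO11 had 2.29, 3.50 and 4.49, and FBXW7 6.35 and 10.21, in the authors' deposited table. FBXO43, which encodes the meiotic APC/C inhibitor EMI2, had 5.05 and 9.84, FBXO22 0.97 and 3.35, and FBXO21 -1.44 and 5.47 in the authors' deposited table.

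Over the 25 members with 2 or more peaks, the median distance between the highest and the lowest peak was 5.82, beside 6.42 for all such genes. Peaks of 1 sign were found in 18 of them (72.0%), beside 66.8% of all such genes. By gene, 23 USP, 11 TRIM and 17 F-box genes had only positive peaks, beside 78.1% of all listed genes. Only negative peaks were held by 3, 2 and 3 genes in that order, beside 8.75% of all, and both signs by 3, 3 and 1, beside 13.1%. The median over peaks was 1 or more in 25 USP, 12 TRIM and 15 F-box genes, beside 84.5% of all listed genes, and -1 or less in 0, 1 and 1, beside 4.47%. The medians of these gene values were 4.87 for USP, 6.11 for TRIM and 3.50 for F-box genes, and 5.45 for all listed genes. With each peak counted on its own they were 4.11, 4.02 and 4.73, so the order of the families did not hold.

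**Figure D4:**
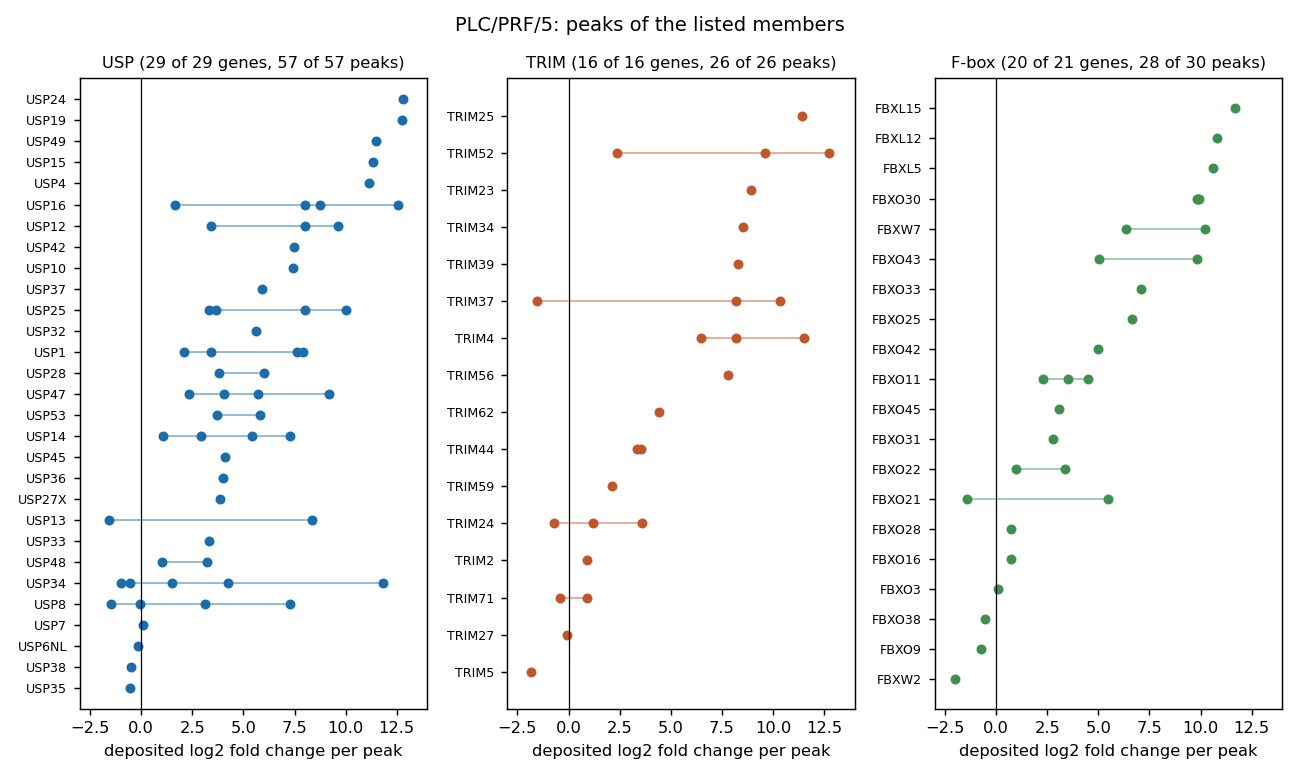
Each point is the deposited log2 fold change of 1 PLC/PRF/5 peak, and a line joins the peaks of a gene (1 F-box gene is not shown). Genes are ranked by their median within each family. USP34, USP13 and TRIM37 reach from below 0 to above 8, while the 3 points of FBXO30 nearly coincide.

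Members with 1 peak covered the same range. USP24 (12.80) and USP19 (12.77) were the highest members in the authors' deposited table. USP49 (11.47), USP15 (11.35) and USP4 (11.15) followed among USP genes with 1 peak in the authors' deposited table. TRIM25 (11.39) and FBXL15 (11.70) were the highest of the genes with 1 peak in their families in the authors' deposited table. FBXW2 (-1.99) and TRIM5 (-1.82) were the lowest members in the authors' deposited table. USP35 (-0.53), USP38 (-0.50), FBXO38 (-0.56) and FBXO9 (-0.72) were also negative in the authors' deposited table. All 5 FBXL peaks were positive, in 4 genes, beside 86% of all peaks.

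Of the 61 members listed in both lines, 33 (54.1%) had all PLC/PRF/5 peaks of the same sign as the HUH7 value and 21 (34.4%) all of the opposite sign, beside 47.9% and 37% of all shared genes. Another 6 had peaks of both signs, and FBXO22 was at 0 in HUH7. Of the 33, 29 were positive in HUH7, and of the 21, 18 were negative. Since most PLC/PRF/5 peaks were positive, the HUH7 sign largely set which of the 2 counts a gene fell into. USP genes numbered 12 same and 12 opposite, TRIM genes 9 and 3, and F-box genes 12 and 6.

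Of the 12 members at 1 or more in HUH7 that were listed in both lines, 10 had only positive PLC/PRF/5 peaks, beside 78% of all such genes. In the authors' deposited table, USP49 had 3.30 for HUH7 and 11.47 for PLC/PRF/5. USP42 had 1.50 and 7.49, USP15 1.16 and 11.35, and USP7 1.56 and 0.08, HUH7 first, in the authors' deposited table. FBXL12 had 1.49 and 10.80, and FBXO33 1.29 and 7.08, HUH7 first, in the authors' deposited table. TRIM4, USP25 and FBXO11 had several peaks, all positive, while USP34 and USP8 had peaks of both signs.

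Of the 11 members at -1 or less in HUH7 that were listed in both lines, 9 had only positive PLC/PRF/5 peaks, beside 77.9% of all such genes. Both counts lie near the shares of all such genes. Past 1 in both lines with all peaks of the opposite sign were 7 of the 61 members, beside 9.16% of all genes in both lines. In the authors' deposited table, USP48 had -5.18 for HUH7 and PLC/PRF/5 peaks at 1.03 and 3.20. For USP12, the authors' deposited table gave -3.34 in HUH7 and PLC/PRF/5 peaks at 3.42, 7.99 and 9.64. USP53 had -1.80 in HUH7 and peaks at 3.72 and 5.83, and USP36 -1.38 and a peak at 4.00, in the authors' deposited table. For TRIM2, the authors' deposited table gave -1.01 in HUH7 and a PLC/PRF/5 peak at 0.89. Negative peaks were found in USP35, with -1.72 in HUH7 and a lone PLC/PRF/5 peak at -0.53, and in TRIM24, with peaks of both signs, in the authors' deposited table.

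**Figure D5:**
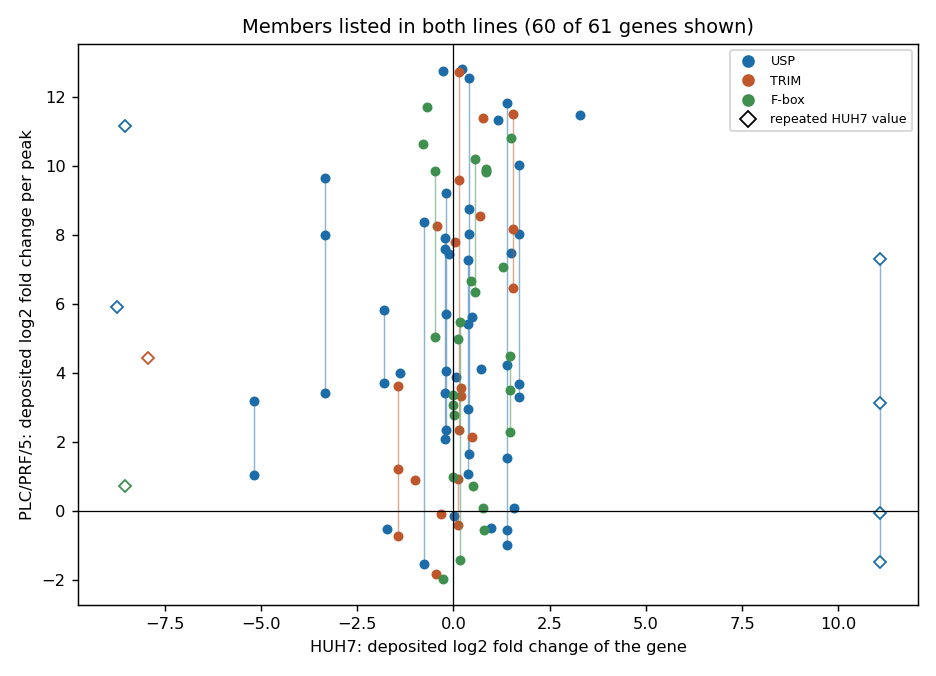
The members listed in both lines, 1 of 61 not shown, with the HUH7 value of the gene on the x axis and each PLC/PRF/5 peak on the y axis, both as deposited log2 fold changes. Lines join peaks of 1 gene. Most points lie above 0 on the y axis on either side of the x axis, and USP48 and USP12 lie far to the left with positive peaks.

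Listing in PLC/PRF/5 went with different HUH7 values in the families. USP genes listed in both lines had an absolute HUH7 value of 1 or more in 14 of 27 cases (51.9%), and those in HUH7 alone in 4 of 13 (30.8%). For TRIM genes it was 4 of 14 (28.6%) and 13 of 28 (46.4%), and for F-box genes 5 of 20 (25%) and 12 of 24 (50%). Over all HUH7 genes it was 29.7% of those also listed in PLC/PRF/5 and 41.2% of the rest, so TRIM and F-box genes followed the order of the whole column and USP genes did not. No test of this difference was made. These counts include repeated values, which all lie past 1. Among genes in both lines and in HUH7 alone, they were held by 3 and 0 USP, 1 and 3 TRIM, and 1 and 4 F-box genes. Of all HUH7 genes, 9.19% and 14.6% held one in the same order.

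The other genes of the ubiquitin pathway also went both ways in HUH7. Of the cullin-RING parts, which include the scaffold of SCF and related ligases and its regulators, 22 were listed, 15 positive and 7 negative. Among them were 8 at 1 or more and 3 at -1 or less. Over all HUH7 genes, 60.8% were positive, 22.2% at 1 or more and 14.6% at -1 or less. CUL4B (3.42) was the highest and COPS7B (-1.13), of the COP9 signalosome, the lowest unrepeated value in the authors' deposited table. CUL1, the SCF cullin, had 1.10, and the RING subunit RBX1 held a repeated value of 10.73, in the authors' deposited table. SKP1 was listed in neither line. The F-box genes SKP2 (-0.39) and CCNF (0.08) lay near 0 in the authors' deposited table. Of the F-box genes with other names, 6 of 7 were listed, 4 positive and 2 negative.

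Among other deubiquitinases, 24 of 35 were listed in HUH7, 13 positive, 10 negative and 1 at 0, with 4 at 1 or more and 3 at -1 or less, beside the same shares of all HUH7 genes. The list also takes in PAN2 (0.36 in the authors' deposited table), which encodes a poly(A) deadenylase and no deubiquitinase. BRCC3 (2.14), of the BRCA1-A complex, was the highest and JOSD1 (-0.88) the lowest unrepeated one in the authors' deposited table. Of the E2 genes, 24 of 36 were listed, 17 positive and 7 negative, and the unrepeated ones ran from UBE2E2 (-2.40) to UBE2D3 (0.79) in the authors' deposited table. Among E1 genes, 5 of 8 were listed, from UBA6 (-0.64) to UBA2 (2.0) without repeated values, in the authors' deposited table. TRIM-family genes with other names numbered 3 listed, all negative, from PML (-0.24) to MID1 (-1.28) in the authors' deposited table.

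In PLC/PRF/5, cullin-RING parts had 20 peaks in 10 genes, and other deubiquitinases, PAN2 included, 30 peaks in 20 genes. Only positive peaks were held by 7 and 16 of these genes, beside 78.1% of all listed genes, and both signs by 3 and 4, beside 13.1%. CUL4B had peaks from 3.91 to 12.16, CUL5 from 5.02 to 12.51 and CUL4A from 0.07 to 5.74 in the authors' deposited table. The mean number of peaks was 2.0 per cullin-RING gene and 1.5 per other deubiquitinase gene, on either side of the 1.74 of all listed genes.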

How the data were processed

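Input and m6A immunoprecipitated libraries of CSTF2-knockout and parental HUH7 and PLC/PRF/5 cells were sequenced, 1 library per group (8 in all). The authors deposited log2 fold changes, per the file headers, with a gene name beside each. The submitters' processing notes name FastQC 0.12.0 and build hg38. Aligner, peak caller, normalization and differential test were not given in the sources used here.

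Names were brought to current symbols through the RefSeq table of GRCh38.p14. Of the 126 HUH7 members, 125 names were current and 1 matched through a synonym. Coordinates are those of RefSeq genes, not of peaks. Members and lists were chosen with earlier results of these data known. The value of a PLC/PRF/5 gene is the median over its peaks. Counts, medians and exact binomial intervals, which cover counting error only, were computed with pandas 2.3.3 and scipy 1.17.1 and tested on simulated data. The planned tests across samples could not be made with 1 library per group, so no p-value is given. The genes described were, per family, the 5 highest and 5 lowest unrepeated HUH7 values, every repeated value, the members with the most peaks and a list of well-known members. Alternatives were a minimum fold, leaving out repeated values, other gene values in PLC/PRF/5, other name matching and other denominators. The values of 1 F-box gene are not reported here, though counts and medians include it.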

Additional observations from a re-analysis of the deposited data

Results flagged for a closer look

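The genes below stood past 1 on the log2 scale in both lines, with every PLC/PRF/5 peak of the opposite sign to the HUH7 value. There were 7 of them among 61 members in both lines, beside 9.16% of all genes in both lines, all negative in HUH7 and positive in PLC/PRF/5, and the difference between the lines was not tested. In HUH7, USP37 had -8.75, USP4 -8.53, TRIM62 -7.94, USP48 -5.18, USP12 -3.34, USP53 -1.80 and USP36 -1.38 in the authors' deposited table. In PLC/PRF/5, USP37 had 5.91, USP4 11.15, TRIM62 4.42 and USP36 4.00 in the authors' deposited table, and the peaks of the other 3 are given above. The HUH7 values of USP37, USP4 and TRIM62 are repeated ones. Whether the columns share a direction is not stated, and 86% of all PLC/PRF/5 peaks were positive.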

How the results depend on the processing

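Of 144 values recomputed under other settings, 122 stayed within their exact interval or within 1.5 times the count, 22 moved, and 0 values past 1 changed sign. Some of these could not move. A minimum fold keeps every value at 1 or more and at -1 or less. Taking the largest peak per gene leaves the number of genes unchanged. The tally is therefore no measure of how stable the results are. The TRIM median in HUH7, close to 0, turned to 0.08 without repeated values, against -0.04 with them. With each peak counted on its own, the PLC/PRF/5 medians were 4.11 for USP, 4.02 for TRIM and 4.73 for F-box genes, against 4.87, 6.11 and 3.50 by gene. With absolute values of 1 or more only, the share of positive USP genes in PLC/PRF/5 was 100%, against 89.7% over all values, and the HUH7 medians were 1.27 for USP, -1.10 for TRIM and 1.40 for F-box genes. Leaving out repeated HUH7 values cut the F-box genes at -1 or less to 1, against 5 with them. With the peak of largest absolute value in place of the median, the USP median in PLC/PRF/5 was 7.29, against 4.87. Counting each peak on its own raised the USP and TRIM counts with the number of peaks, to 57 and 26, and left the shares of positive values within their intervals. As a share of genes listed in either line, 95.2% of USP, 95.5% of TRIM and 97.8% of F-box genes were listed in HUH7, and 69.0%, 36.4% and 46.7% in PLC/PRF/5. Name matching moved none of the values recomputed. With names as deposited, only 1 HUH7 member, an F-box gene, had a name that differed, so the other values could not move. No paired analysis was possible because each group held 1 library and the labels carry no replicate numbers. Depth could not be weighed, as counts were not analysed here.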
